A study of Mus musculus with 2 samples.

Results

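The tumour necrosis factor (TNF) superfamily was described here by the chromatin around its genes in mouse thymus. Protein-coding genes of the GENCODE annotation of mm10 were taken whose symbol starts with Tnfsf or Tnfrsf, together with Tnf, Lta, Ltb, Ltbr, Fas, Cd40 and Cd40lg. This gave 37 of 21938 genes, of which 16 code for ligands and 21 for receptors, and 2 further receptor genes with these symbols were not analysed here. DNase-seq, in which the nuclease DNase I cuts accessible DNA in nuclei and the cuts are sequenced, had been done on whole thymus of female B6CASTF1/J mice aged 10 days, the first generation of a cross between the C57BL/6J and CAST/EiJ strains. The series holds 1 group of 2 libraries, called replicate 1 and replicate 2, with no treated or control group. The labels give both libraries 1 donor identifier but number the females separately, so the spread between them may be partly technical.

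Ligands of this superfamily are mostly trimeric proteins of the cell surface, and binding to a receptor on a neighbouring cell recruits adaptors that switch on NF-kB, kinases or caspases. Some receptors carry a death domain and can start apoptosis, others signal survival through TRAF adaptors, and a few are decoys that bind ligand without signalling. In the thymus, lymphotoxin and RANK ligand made by lymphoid cells are known to shape the medullary epithelium, and costimulatory receptors act in the selection of T cells.

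Each library was represented by the longer of its deposited peak lists, with 132737 peaks in replicate 1 and 69798 in replicate 2, while read depth is unknown from these files. A start peak shared at least 1 base with the 500 bp on either side of an annotated transcription start, and its height was divided by the median peak height of its library, which was 0.625 in replicate 1 and 0.828 in replicate 2. The other library overlapped 43.2% of the peaks of replicate 1 and 83.2% of those of replicate 2. All 10 thymocyte markers had a start peak in both replicates and all 4 liver markers had none, as the tissue label says. Of the other cell types the organ holds, 3 of 7 thymic epithelial markers had a start peak in both replicates, with none at Foxn1, Psmb11, Krt5 or Krt8. The same held for 1 of 5 B-cell markers, 3 of 6 myeloid and dendritic, 3 of 4 mesenchymal and 2 of 3 endothelial markers. Over all protein-coding genes the share was 57.2%. In whole tissue, fewer cells of a type and less accessible DNA in each cell cannot be told apart, and the part of these cell types in any value below was not tested.

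The sequences below are the start peaks of the 2 ligands and 3 receptors with the highest start peaks and the highest distal peak of the superfamily, shown because the heights reported next rest on them. They are the bases that the peaks of both replicates share, with at most 30 transcribed bases at a start, in the strand of the gene from the mm10 reference (RefSeq GRCm38.p6), which carries the C57BL/6J letters and not those of CAST/EiJ. Capitals mark bases within deposited footprints, short stretches with few cuts inside a peak, of both replicates.
Ltb start, chr17:35194281-35194468, plus strand: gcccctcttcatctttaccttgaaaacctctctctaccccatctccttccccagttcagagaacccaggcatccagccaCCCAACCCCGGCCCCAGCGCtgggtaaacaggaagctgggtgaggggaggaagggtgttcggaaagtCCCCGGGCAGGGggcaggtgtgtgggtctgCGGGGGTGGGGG
Tnfsf14 start, chr17:57194161-57194460, minus strand: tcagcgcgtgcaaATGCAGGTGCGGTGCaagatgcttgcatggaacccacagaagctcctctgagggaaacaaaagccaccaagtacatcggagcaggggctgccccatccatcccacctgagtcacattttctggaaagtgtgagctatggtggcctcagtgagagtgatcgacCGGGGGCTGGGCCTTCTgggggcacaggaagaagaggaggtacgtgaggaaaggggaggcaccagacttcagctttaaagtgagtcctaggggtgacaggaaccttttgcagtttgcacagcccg
Tnfrsf9 start, chr4:150914421-150914591, plus strand: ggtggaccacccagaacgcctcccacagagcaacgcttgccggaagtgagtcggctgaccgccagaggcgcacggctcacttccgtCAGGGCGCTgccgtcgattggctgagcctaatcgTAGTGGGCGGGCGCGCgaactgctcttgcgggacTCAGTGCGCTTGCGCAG
Fas start, chr19:34290561-34290695, plus strand: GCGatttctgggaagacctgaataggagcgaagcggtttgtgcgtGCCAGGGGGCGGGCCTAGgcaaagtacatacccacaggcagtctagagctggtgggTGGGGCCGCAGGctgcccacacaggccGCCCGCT
Tnfrsf21 start, chr17:43016381-43016580, plus strand: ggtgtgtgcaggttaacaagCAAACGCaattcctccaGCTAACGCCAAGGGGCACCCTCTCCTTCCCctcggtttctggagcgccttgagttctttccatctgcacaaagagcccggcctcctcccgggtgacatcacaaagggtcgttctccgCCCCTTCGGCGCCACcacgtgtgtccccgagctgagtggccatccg
Ltb exon, chr17:35195761-35195980, plus strand: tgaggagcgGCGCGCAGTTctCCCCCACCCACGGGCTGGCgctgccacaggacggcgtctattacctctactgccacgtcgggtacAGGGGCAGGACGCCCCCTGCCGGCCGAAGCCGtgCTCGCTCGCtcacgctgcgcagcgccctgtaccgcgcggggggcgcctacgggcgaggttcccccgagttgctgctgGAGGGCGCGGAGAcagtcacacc

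Footprints of both replicates covered 44 of the 188 bases printed for Ltb and 32 of 300 for Tnfsf14. They covered 42 of 171 bases for Tnfrsf9, 40 of 135 for Fas, 52 of 200 for Tnfrsf21, and 83 of 220 for the exon of Ltb. The letters were searched on both strands for 7 consensus motifs, the NF-kB motif GGANTTTCC, the ETS motif CCGGAAGT, the RUNX motif TGTGGTT, the AP-1 motif TGANTCA, the SP and KLF motif GGGCGGG, the E protein motif CAGGTG and the CRE motif TGACGTCA. Positions are counted from 1 at the 5′ end of each printed sequence. The Ltb start held the NF-kB motif at 140 to 148 on the opposite strand, with 2 of its bases in shared footprints. Of all promoters of that length, 0.843% held this motif. The Ltb start also held the E protein motif at 161 to 166, outside the footprints, and 13.1% of all promoters of that length held this motif. The Tnfsf14 start held the AP-1 motif at 120 to 126 and the E protein motif at 116 to 121, which overlap and lie outside the shared footprints, and a further E protein motif at 17 to 22 wholly within one. Of all promoters of 300 bp, 6.91% held the AP-1 motif and 20.4% the E protein motif. The SP and KLF motif stood wholly within a shared footprint in the starts of Tnfrsf9, at 125 to 131, and Fas, at 52 to 58. Between 24% and 27.1% of all promoters of those lengths held it. Tnfrsf9 also held the ETS motif at 40 to 47, outside the footprints, and 4.1% of all promoters of that length held this motif. The Tnfrsf9 peak also touches the start of Park7, so its motifs are not those of Tnfrsf9 alone. None of the 7 motifs occurred in the Tnfrsf21 start or the Ltb exon. A match describes these letters and shows no binding.

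Start peaks were found at most receptor genes and at fewer of the ligand genes. A start peak was present in both replicates at 8 of 16 ligands (50%) and at 18 of 21 receptors (85.7%), where the share over the whole annotation was 57.2%. In replicate 1 the counts were 10 ligands and 18 receptors, or 75.7% of the superfamily, where 63.4% of all genes had a start peak. In replicate 2 they were 8 ligands and 19 receptors, or 73.0%, where 57.8% of all genes had one. Together 26 of the 37 genes (70.3%) had a start peak in both replicates, 3 had one in a single replicate and 8 had none. Of these 8, the ligand genes Tnfsf12, Tnfsf13 and Tnfsfm13 belong to 1 overlapping locus but are counted separately. The 8 genes without a start peak also had no listed false discovery rate of the cut rate, a per-base statistic listed only below 0.05, within 500 bp of a start in either replicate. Among all 7902 genes without a start peak, 3.48% had a listed value in replicate 1 and 0.962% in replicate 2. A peak at any annotated start of a gene counted, and receptors had more annotated starts a gene than ligands. With the 5′ end of each gene alone, 8 ligands and 16 receptors had a start peak in both replicates, against 51.8% of all genes.

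Starts in CpG-poor DNA made up most of the superfamily and a smaller majority of all genes. The observed over expected CpG ratio in the 1 kb around the 5′ end was under 0.6 at 15 of 16 ligands and 14 of 21 receptors. The same held for 29 of 37 members together and for 11855 of all 21938 genes. The median ratio was 0.395 over members and 0.552 over all genes. Among these CpG-poor genes, 8 ligands (53.3%) and 11 receptors (78.6%) had a start peak in both replicates, against 30.9% of the 11855 CpG-poor genes of the genome. Of the CpG-rich members, the 1 ligand, Tnfsf9, had a start peak in replicate 1 alone, and all 7 receptors had one in both, against 88% of the 10083 CpG-rich genes. Read within each class, the superfamily's CpG-poor genes had start peaks in both replicates in 65.5% of cases and its CpG-rich genes in 87.5%. The ligands and receptors thus differed in CpG content as well as in start peaks, and the part of one in the other was not tested. In the 300 bp promoter windows, the SP and KLF motif occurred at 2 ligands (12.5%) and 12 receptors (57.1%), against 31.5% of all promoters. The NF-kB motif occurred at 2 members, Ltb and Tnfsf15, or 5.41% against 1.24% of all promoters. The E protein motif occurred at 18.9% of members against 20.4% of all promoters, the AP-1 motif at 10.8% against 6.91%, the RUNX motif at 5.41% against 5.09%, the ETS motif at 2.7% against 4.7%, and the CRE motif at none against 2.43%.

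**Figure D1:**
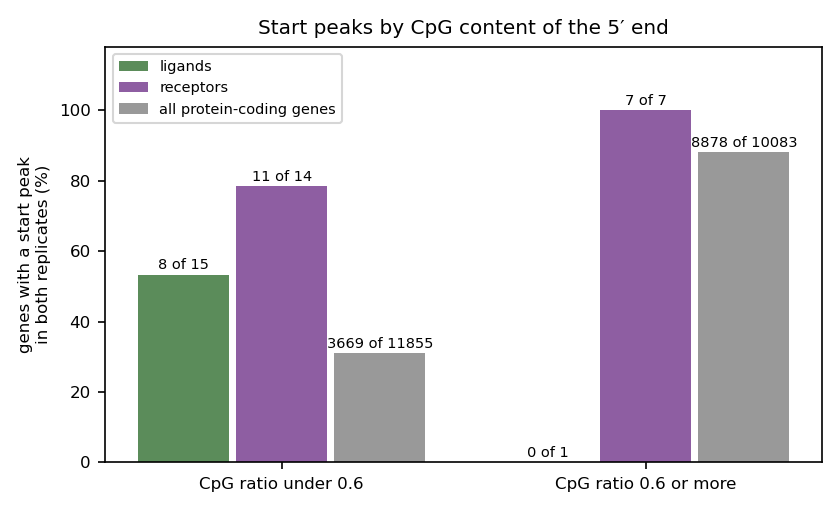
Bars give the percentage of ligand genes, receptor genes and all protein-coding genes with a start peak in both replicates, split by the CpG ratio of the 1 kb around the 5′ end, with the counts above each bar. In the CpG-poor class 8 of 15 ligands and 11 of 14 receptors had one, against 3669 of 11855 genes.

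Heights at the starts of members were near those of all genes, but low beside those of genes that have a start peak. A mean height above the all-gene median of 1.51 was found at 20 of 37 members. Over all members, with 0 where no peak was called, the median start height was 1.36 in replicate 1 and 0.423 in replicate 2 times the median peak for ligands (0.890 ± 0.660, SD, n = 2). For receptors it was 2.61 and 1.33 (1.97 ± 0.907), and over all genes 1.96 and 1.06 (1.51 ± 0.636). The difference between ligands and receptors was in the same direction in both replicates, but the ranges over the 2 replicates overlapped. With equal numbers of peaks taken from both libraries, the medians were 0.613 in replicate 1 and 0.423 in replicate 2 for ligands (0.518 ± 0.134) and 1.18 and 1.33 for receptors (1.25 ± 0.105), and those ranges did not overlap. All these medians count genes without a start peak as 0, so they carry the share of such genes. Among genes with a start peak, the medians were 3.44 in replicate 1 and 1.94 in replicate 2 for ligands. For receptors they were 3.67 and 1.48, so receptors were higher in replicate 1 and ligands in replicate 2. Over all genes with a start peak they were 6.88 in replicate 1 and 4.92 in replicate 2, above ligands and receptors in both. Of the 26 members with a start peak in both replicates, only Ltb and Tnfrsf9 stood above the 50th percentile of all genes with a start peak in both, and 23 stood below it in both. The plot of start heights shows every member.

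**Figure D2:**
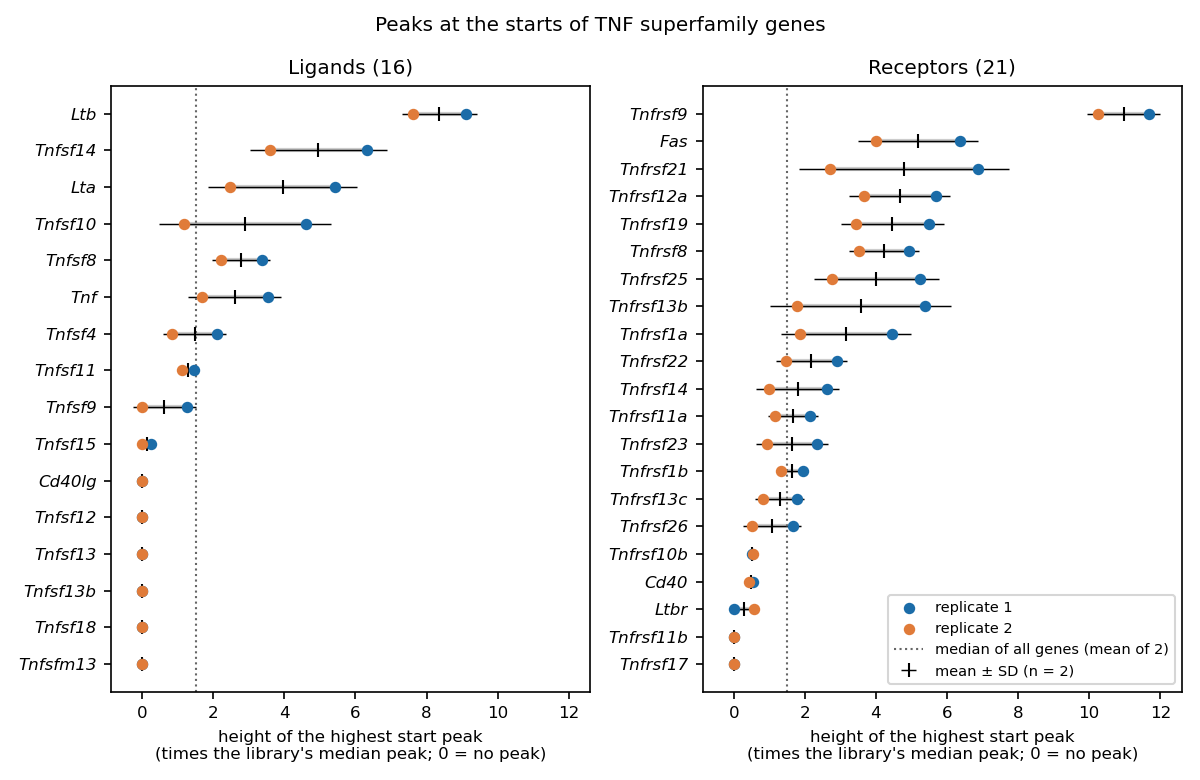
Each row is a gene, with the height of its highest start peak in replicate 1 (blue) and replicate 2 (orange) in multiples of the library's median peak height, 0 where no peak was called, and the mean ± SD of both in black. Ltb at 8.36 leads the ligands and Tnfrsf9 at 10.97 the receptors, and the dotted line is the median of all genes, 1.51.

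All 4 genes of the TNF and lymphotoxin ligands had a start peak in both replicates, where 57.2% of all genes had one. Ltb, which codes for the membrane anchor of surface lymphotoxin, stood at 9.11 times the median peak in replicate 1 and 7.62 in replicate 2 (8.36 ± 1.06, SD, n = 2). Tnfsf14, which codes for LIGHT, a ligand of HVEM and of the lymphotoxin beta receptor, stood at 6.32 and 3.59 (4.96 ± 1.94). The lower Ltb replicate was above the higher one of Tnfsf14, so these ranges did not overlap. Tnf itself stood at 3.53 and 1.68 (2.60 ± 1.31). Lta, which codes for lymphotoxin alpha, stood at 5.44 and 2.47 (3.95 ± 2.10), but these heights come from different peaks. In replicate 1 the higher Lta peak, at chr17:35204581-35204860, reached the edge of the 500 bp window, whereas the peak of replicate 2 at the same place ended before it. The peak nearest the Lta 5′ end measured 3.97 times the median in replicate 1 and 2.47 in replicate 2.

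Ltb, Tnf and Lta lie within a few kilobases of each other on chromosome 17. In the 12.9 kb from 1 kb before Ltb to 1 kb beyond Lta, 12 peaks were called in replicate 1 and 8 in replicate 2, of which 7 in each overlapped a peak of the other. The highest was not at a start. It lay 1.42 kb downstream of the 5′ end of Ltb, in a coding exon of the gene, at 14.2 times the median peak in replicate 1 and 12.4 in replicate 2 (13.3 ± 1.26, SD, n = 2), above the start peak of Ltb in both. A peak in an intron of Tnf, 1.38 kb downstream of its 5′ end at chr17:35200521-35200760, stood at 6.74 and 5.44 (6.09 ± 0.919). It too was above the start peak of its gene in both replicates. Lta had no distal peak, with only 7413.5 bp of sequence free for any. The map of the locus shows these peaks in order.

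**Figure D3:**
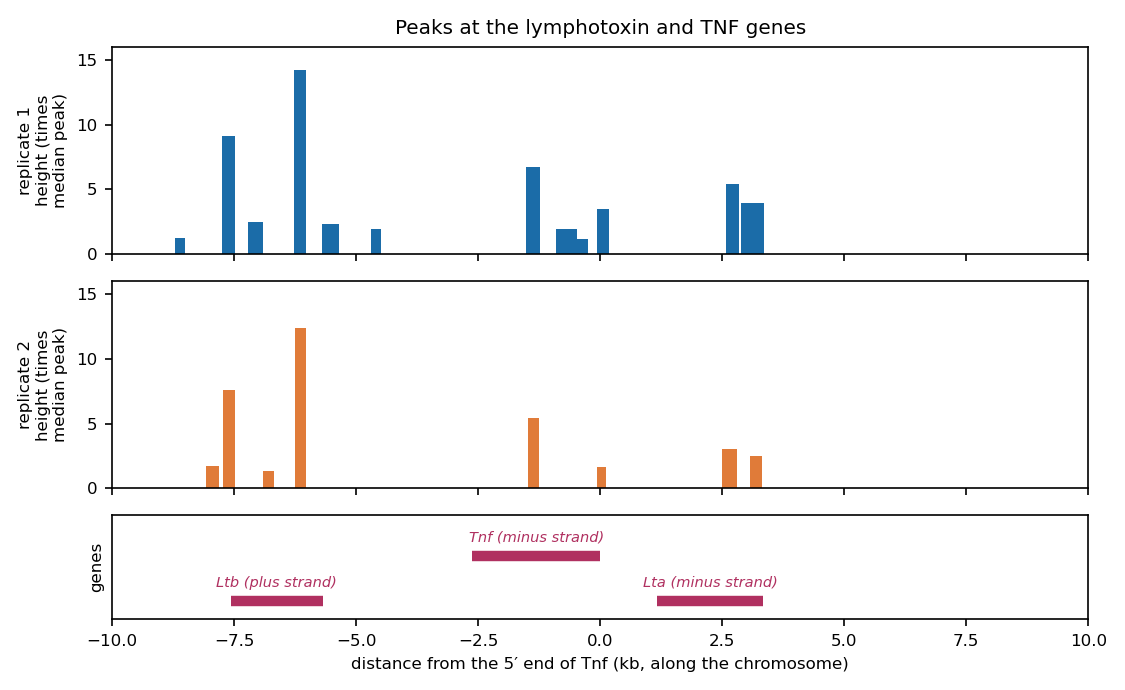
Bars are the called peaks within 10 kb of the Tnf 5′ end, drawn at their position in kb along the chromosome and at their height in multiples of the library's median peak, for replicate 1 (blue) and replicate 2 (orange), above the extents of Ltb, Tnf and Lta. The highest bar in both replicates, at 14.2 and 12.4, lies inside Ltb.

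Of the 6 costimulatory ligands, Tnfsf8 and Tnfsf4 had a start peak in both replicates, where 57.2% of all genes had one. Tnfsf8, which codes for the ligand of CD30, stood at 3.36 in replicate 1 and 2.21 in replicate 2 (2.79 ± 0.814, SD, n = 2). Tnfsf4, which codes for OX40 ligand, stood at 2.10 and 0.846 (1.47 ± 0.888), with its peak 352 bp from the start, and this peak lay outside a window of 250 bp. Tnfsf9, which codes for the ligand of 4-1BB, had a start peak in replicate 1 alone, 780 bp wide and 1.25 times the median peak, with 13 footprints in it. Tnfsf15, which codes for TL1A, the ligand of the receptor DR3, had a start peak of 0.259 in replicate 1 alone. No start peak was called at Tnfsf18, which codes for the ligand of another costimulatory receptor, or at Cd40lg, which codes for CD40 ligand of helper T cells. Around Cd40lg there were nevertheless distal peaks, 9 of replicate 1 and 5 of replicate 2, and 5 in each overlapped a peak of the other. By the mean of both replicates the highest of these lay 22.6 kb upstream of Cd40lg at chrX:57189441-57189660 and measured 2.86 in replicate 1 and 1.29 in replicate 2. Another shared peak, at chrX:57196437-57196540, was slightly higher in replicate 1, at 2.92, and measured 0.497 in replicate 2. Tnfsf18 had 3 distal peaks in replicate 1 and none in replicate 2.

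Among the death, bone and growth ligands, Tnfsf10, which codes for TRAIL, stood at 4.61 in replicate 1 and 1.17 in replicate 2 (2.89 ± 2.43, SD, n = 2). The peak was 420 bp wide in replicate 1 and 60 bp in replicate 2. Tnfsf11, which codes for RANK ligand, stood at 1.46 and 1.13 (1.30 ± 0.233). Tnfsf12, which codes for TWEAK, had neither a start peak nor a distal peak. The same was true of Tnfsf13, which codes for the B-cell survival factor APRIL. Only 3868.5 bp at Tnfsf12 and 4603.5 bp at Tnfsf13 were free for distal peaks, since other starts lie close. Tnfsf13b, which codes for BAFF, also for B cells, had no start peak, with 3 distal peaks in replicate 1 and none in replicate 2. Tnfsfm13, annotated as a gene of its own, spans both Tnfsf12 and Tnfsf13 on the same strand. It had no start peak and 1 distal peak, in replicate 1.

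Of the 4 TNF and lymphotoxin receptors, 3 had a start peak in both replicates, where 57.2% of all genes had one. Tnfrsf1a, which codes for TNFR1, stood at 4.44 in replicate 1 and 1.87 in replicate 2 (3.16 ± 1.82, SD, n = 2). Tnfrsf1b, which codes for TNFR2, a receptor known on lymphocytes, stood at 1.94 and 1.33 (1.63 ± 0.429). Tnfrsf14, which codes for HVEM, stood at 2.61 and 0.979 (1.79 ± 1.15), so the ranges of these 3 receptors overlapped. Within each replicate Tnfrsf1a was the highest of the 3, while Tnfrsf1b and Tnfrsf14 changed order between replicates. Ltbr, which codes for the lymphotoxin beta receptor of stromal cells, had a start peak in replicate 2 alone, 0.566 times the median peak and without a footprint.

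All 4 costimulatory receptors had a start peak in both replicates, where 57.2% of all genes had one. Tnfrsf9, which codes for 4-1BB, had the highest of the superfamily, at 11.7 in replicate 1 and 10.2 in replicate 2 (10.97 ± 1.03, SD, n = 2). This peak also touches the start of Park7, a widely expressed gene that runs the other way, and the 2 genes cannot be told apart here. With peaks at the start of another gene left out, Tnfrsf9 had no start peak in either replicate. Tnfrsf8, which codes for CD30, stood at 4.93 and 3.53 (4.23 ± 0.986), and Tnfrsf25, which codes for DR3, at 5.25 and 2.78 (4.01 ± 1.75). Their ranges overlapped. Cd40, the receptor of antigen-presenting cells for CD40 ligand, stood lower, at 0.537 and 0.434 (0.485 ± 0.0732), below the median peak of each library.

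The 6 death receptors and decoys all had a start peak in both replicates, and 3 of them were CpG-rich. The shares over all genes were 57.2% in all and 88% among CpG-rich ones. Fas, whose receptor starts apoptosis when it meets Fas ligand, stood at 6.37 in replicate 1 and 3.99 in replicate 2 (5.18 ± 1.68, SD, n = 2). Tnfrsf21, which codes for the death receptor DR6, stood at 6.88 and 2.70 (4.79 ± 2.96), a range that held that of Fas. The 3 neighbours on chromosome 7, the TRAIL decoys Tnfrsf22 and Tnfrsf23 and the related Tnfrsf26, were lower. Tnfrsf22 stood at 2.90 and 1.48 (2.19 ± 1.01), Tnfrsf23 at 2.35 and 0.930 (1.64 ± 1.00) and Tnfrsf26 at 1.66 and 0.503 (1.08 ± 0.816). Their sequences are related, but none of the 55 highest start peaks of members was found a second time elsewhere, with 90% identity across 80% of the peak as the limit. Tnfrsf10b, which codes for the mouse TRAIL death receptor, stood at 0.509 and 0.532 (0.520 ± 0.0157). The closeness of these values is not that of 1 site: the peak of replicate 1 lay 9.7 kb downstream of the 5′ end at an alternative start, that of replicate 2 lay near the 5′ end, and neither overlapped a peak of the other replicate.

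Tnfrsf13b and Tnfrsf13c, B-cell receptors of BAFF, had a start peak in both replicates. Tnfrsf13b, which codes for TACI, stood at 5.37 in replicate 1 and 1.77 in replicate 2 (3.57 ± 2.55, SD, n = 2). Its peak lay 15.7 kb downstream of the 5′ end of the gene at an alternative start, and when the 5′ end alone was used, Tnfrsf13b and Tnfrsf14 no longer had a start peak in both replicates. Tnfrsf13c, which codes for the BAFF receptor, stood at 1.78 and 0.811 (1.29 ± 0.683). Tnfrsf17, which codes for BCMA of plasma cells, had no start peak, with 3 distal peaks in replicate 1 and 1 in replicate 2.

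Of the bone and development receptors, Tnfrsf12a, the receptor of TWEAK, stood at 5.68 in replicate 1 and 3.66 in replicate 2 (4.67 ± 1.43, SD, n = 2). Tnfrsf19, which codes for TROY, stood at 5.48 and 3.45 (4.46 ± 1.44), a range that overlapped that of Tnfrsf12a. Within each replicate Tnfrsf12a was the higher. Tnfrsf11a, which codes for RANK, stood at 2.16 and 1.17 (1.66 ± 0.70). Tnfrsf11b, which codes for osteoprotegerin, the soluble decoy for RANK ligand, had no start peak and 1 distal peak, in replicate 1.

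Footprints were found in nearly all of these peaks. At least 1 lay in the highest start peak of 27 of 28 members with a start peak in replicate 1 (96.4%) and of 24 of 27 in replicate 2 (88.9%). Over all highest start peaks the percentages were 94.7% and 97.1%. The median number of footprints was 5 in replicate 1 and 3 in replicate 2 for members, against 4 in both for all genes. Tnfsf9, with a start peak in replicate 1 alone, had the most there, 13 footprints in a peak of 780 bp. Tnfrsf21 in replicate 2 had 10 in 500 bp, and Tnfrsf26 in replicate 1 had 10 in 780 bp. The peaks of Tnfrsf10b had none in either replicate.

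Members stood higher in replicate 1 than in replicate 2 almost throughout. Over the library median, 25 of the 26 members with a start peak in both replicates were higher in replicate 1, as were 93.3% of all genes with both. The median ratio of replicate 1 over replicate 2 was 1.87 for members and 1.47 for all genes. Tnfrsf10b, whose peaks lie at different places, was the exception. Since this scale carries the difference between the library medians, the deposited heights were compared as well: 21 of 26 members (80.8%) were higher in replicate 1, against 65% of all genes, with median ratios of 1.41 and 1.11. Ltb, Tnfsf11, Tnfrsf9, Cd40 and Tnfrsf10b were higher in replicate 2 on that scale. The largest ratios over the median were 3.92 for Tnfsf10, 3.29 for Tnfrsf26 and 3.04 for Tnfrsf13b. Across the 26 members, log2 heights of the replicates correlated with r = 0.900, and across 12547 genes with r = 0.953. These are correlations across genes within the same 2 libraries, so the genes are not independent replicates, and the 2 libraries may not be either. Replicate 1 lists more peaks and a lower median height, and the part of this in the ratios was not tested.

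**Figure D4:**
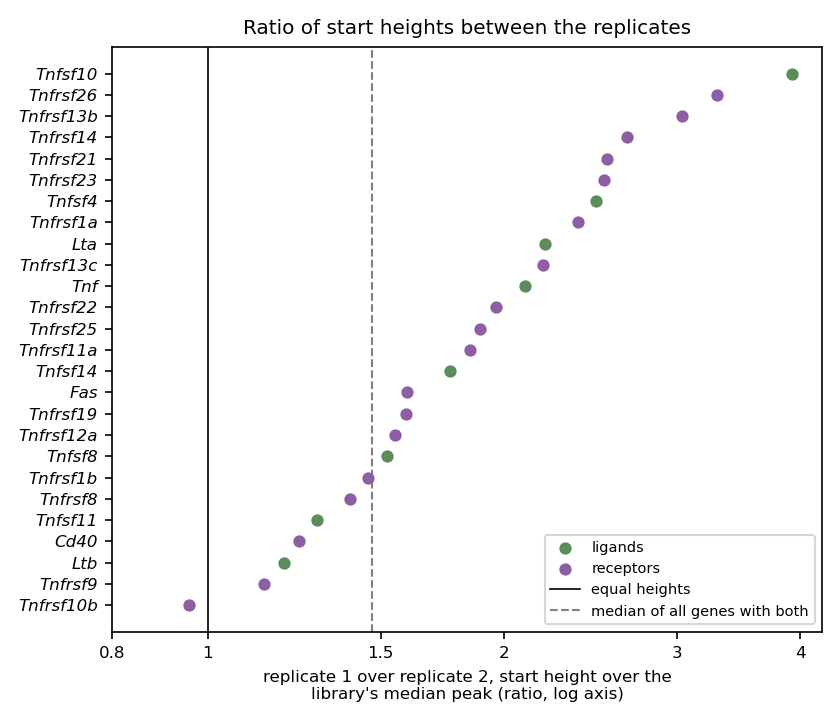
Each point is a member with a start peak in both replicates, at the ratio of its height over the library median in replicate 1 to that in replicate 2 on a log axis, ligands in green and receptors in purple. All but Tnfrsf10b lie right of 1, and Tnfsf10 is farthest at 3.92, while the dashed line is the median of all genes, 1.47.

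Away from the starts, the superfamily had more peaks per gene than genes on average. A distal peak had its midpoint more than 1 kb from every protein-coding start and was given to the gene of the nearest start within 50 kb. Members had 189 in replicate 1 and 92 in replicate 2, a mean of 5.11 and 2.49 a gene, against 3.39 and 1.53 for all genes. Ligands had means of 4.13 and 1.81 (2.97 ± 1.64, SD, n = 2) and receptors of 5.86 and 3 (4.43 ± 2.02). Per 10 kb of sequence from which a gene could collect peaks, ligands had 0.817 in replicate 1 and 0.359 in replicate 2, receptors 1.21 and 0.619, and all genes 0.598 and 0.27. Ligands, receptors and all genes thus stood in 1 order within each replicate on both scales, with receptors highest and all genes lowest. The ranges over the replicates overlapped on both scales, except those of receptors and all genes per 10 kb. With equal numbers of peaks, the means a gene were 2.25 in replicate 1 and 1.81 in replicate 2 for ligands and 3.81 and 3 for receptors, which did not overlap, and 1.74 and 1.53 for all genes. Medians were lower than means, at 3 and 1 for ligands, 3 and 2 for receptors and 1 and 0 for all genes.

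Most distal peaks of replicate 2 were also in replicate 1. Of the members' distal peaks, 83 of 189 in replicate 1 (43.9%) and 86 of 92 in replicate 2 (93.5%) overlapped a peak of the other library, against 38% and 85% over all genes. The shared ones were higher, with medians of 2.16 times the median peak when shared and 0.736 when not in replicate 1, and of 0.913 and 0.587 in replicate 2. By annotation, 94 of the 189 lay in introns, 13 in exons and 82 between genes, and 91 lay within the member itself. In replicate 2 the counts were 48, 6 and 38, with 46 within the member. At least 1 footprint lay in 154 of the 189 and in 79 of the 92. The positions and footprints of distal peaks were not counted over all genes, so these counts show no trait of the superfamily.

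By the sum of both replicates Tnfrsf1b had the most distal peaks, with 14 in replicate 1 and 9 in replicate 2, and Tnfsf10 followed with 14 and 8. Tnfrsf1a had 11 and 9. Tnfsf11 with 10 and 9, Fas with 14 and 5, and Tnfrsf19 with 15 and 4 had equal sums. In replicate 1 alone Tnfrsf19 had the most, and in replicate 2 Tnfrsf1b, Tnfrsf1a and Tnfsf11 were level at 9. Of these genes, Tnfrsf1a had the highest shared one, in its own intron at chr6:125355221-125355620, 6.07 kb from the 5′ end, at 10.8 in replicate 1 and 6.64 in replicate 2 (8.72 ± 2.94, SD, n = 2). It stood above the gene's own start peak in both replicates. The highest of Tnfrsf19 lay in its intron at chr14:61012461-61012640, 33.9 kb from the 5′ end, at 8.35 and 5.68 (7.02 ± 1.89), again above the start peak in both. For Tnfsf11 it lay 34.3 kb downstream of the 5′ end at chr14:78273681-78273840 and measured 3.55 and 1.63, above the start peak in both. For Tnfrsf1b it lay in an intron at chr4:145229181-145229380, 17.6 kb from the 5′ end, at 3.19 and 1.5, likewise above the start peak. The highest of Fas lay 43.9 kb downstream at chr19:34334441-34334580, at 4.13 and 1.01, below the start peak of Fas in both replicates. By the mean of both replicates, that of Tnfsf10 lay 46.8 kb upstream at chr3:27270141-27270320, in an intron of Nceh1, at 4.04 and 1.06, also below the start peak, and nearness alone ties it to Tnfsf10. In replicate 2 a shared peak beside it, at chr3:27270701-27270880, was higher, at 1.27, and stood above the start peak of 1.17.

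**Figure D5:**
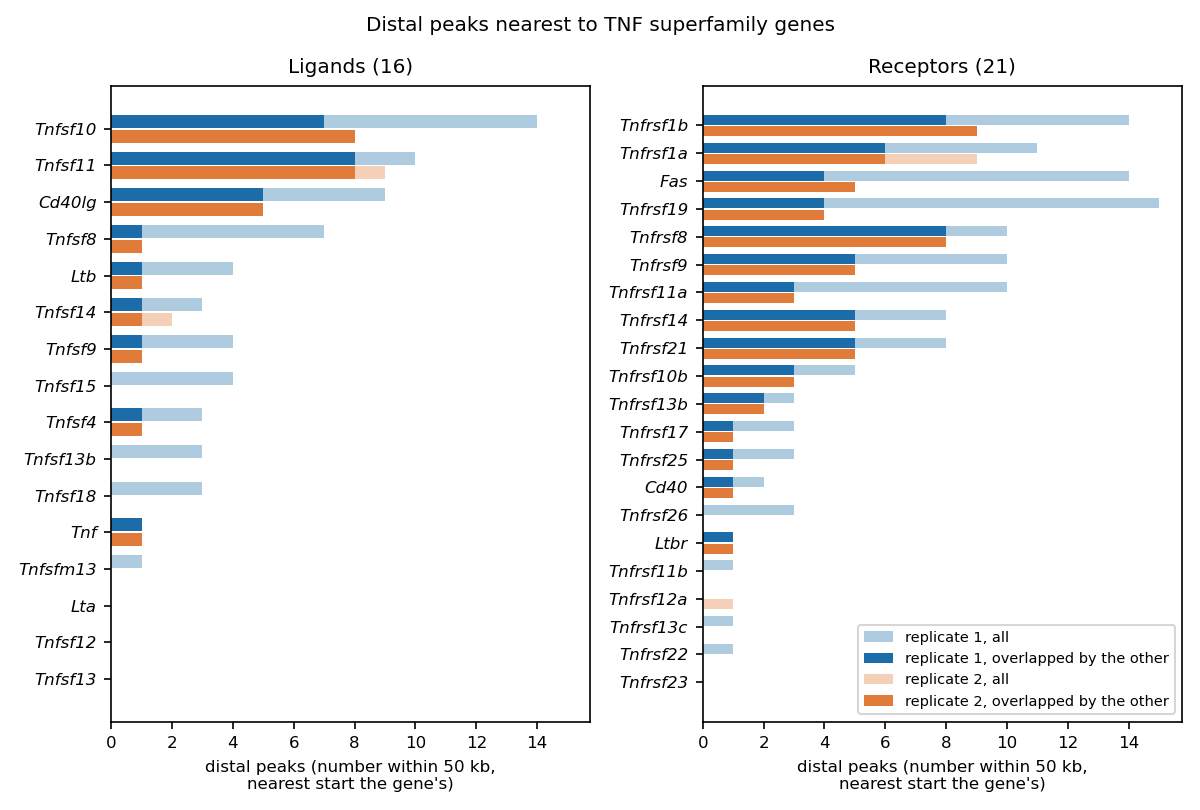
Bars give the number of distal peaks of each member in replicate 1 (blue, upper bar) and replicate 2 (orange, lower bar), with the part overlapped by a peak of the other replicate in full colour. By the sum of both, Tnfsf10 leads the ligands with 14 and 8 and Tnfrsf1b the receptors with 14 and 9, while the replicate 2 bars are almost wholly shared.

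High shared distal peaks also lay near other members. Tnfsf9, with a start peak in replicate 1 alone, had a peak 8.57 kb upstream at chr17:57096661-57096840 in both replicates, at 8.44 in replicate 1 and 4.17 in replicate 2 (6.30 ± 3.02, SD, n = 2). Tnfrsf14 had one 15.9 kb upstream, at 7.27 and 2.5 (4.88 ± 3.37), above its start peak in both. Tnfrsf8 had one 26.9 kb upstream, at 7.25 and 2.88 (5.07 ± 3.09), above its start peak in replicate 1 and below it in replicate 2. All 8 of its distal peaks in replicate 2 were shared. Ltbr had 1 distal peak in each replicate, 11.6 kb downstream, at 2.03 and 0.860. At Tnfrsf12a the sequence free for distal peaks was under 1 kb, since other starts lie close. It had 1 distal peak, in replicate 2, at 1.08 times the median peak. Tnfrsf23 had no distal peak in 20449.5 bp of free sequence.

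All 24 genes of a fixed list of adaptors and signalling proteins downstream of the receptors had a start peak in both replicates, and 19 of the 24 were CpG-rich. The shares over all genes were 57.2% in all and 88% among CpG-rich ones. Over the members, the median start height was 2.16 times the median peak in replicate 1 and 1.13 in replicate 2, and over the 24 adaptors and signalling genes it was 7.61 and 5.26, while over all genes it was 1.96 and 1.06. Named after their values were seen, Sharpin, a subunit of the linear ubiquitin ligase, was the highest at 25.6 and 19.9, followed by Map3k14, the NF-kB inducing kinase, at 18.7 and 18.8, and the adaptor Traf2 at 19.9 and 16.4. Of 8 superfamily genes that the symbols do not take, 5 had a start peak in both replicates (62.5%, near the 57.2% of all genes) and 7 in replicate 1. Among them Relt, a receptor, stood at 17.0 and 11.4 and Cd27, a costimulatory receptor of T cells, at 8.15 and 4.57. Cd70, the ligand of CD27, had none.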

How the data were processed

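DNase-seq peaks, footprints and false discovery rates of 2 thymus libraries were used as the authors deposited them, on mm10 per the file headers and labels. Peak heights are the signal column of the authors' peak lists, made per library. It is taken here as a height scaled by 1 factor per library, since its definition, the difference between the 2 lists of a library, the aligner, the caller, its thresholds and any correction of footprints for cutting bias are not given in the sources used here. Deposited footprints all carry 0.01, read as the false discovery rate (p-value kind) of their call, and deposited false discovery rates of the cut rate are listed only below 0.05. Reads from the CAST/EiJ copy may be placed less often, which was not measured. Whole-read depth is unknown.

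The longer of 2 peak lists per library was used. Genes and all their starts came from GENCODE M21, without mitochondrial genes. No test was made, since the series holds 1 group; members are set beside all protein-coding genes. The members, gene lists and motifs were chosen with earlier results of these data known. Every member was named, by a rule, with both replicates' values where it had a start peak in both, the members with most distal peaks, those with a start peak in 1 replicate and the 3 largest replicate ratios. Sequences were read from RefSeq GRCm38.p6, whose chromosome lengths fit the files. The scoring was checked on simulated peaks. Tools were Python 3.11.15, pandas 2.3.3, pysam 0.24.0, bedtools 2.31.1 and blastn 2.17.0.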

Additional observations from a re-analysis of the deposited data

How the results depend on the processing

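Under 64 alternative settings of 9 results, 58 values moved by less than the spread between replicates, the counting interval of a share, or 1.5 times for a count. For median heights and mean distal peaks, leaving out a replicate could not move a value by more than that spread. Those values among the 58 were thus fixed in advance and show no stability. Within that wide spread, some moved by over 1.5 times. The median start height of ligands, 0.890 as reported, was 0.313 with a window of 250 bp, 0.436 with the shorter peak lists and 0.518 with equal numbers of peaks. That of receptors, 1.97 as reported, was 1.27 with the shorter lists and 1.25 with equal numbers. Mean distal peaks a ligand, 2.97 as reported, were 1.94 with the shorter lists. With every distal peak within 50 kb counted, also where another gene is nearer, the mean was 6.91 a ligand and 8.69 a receptor. The share of distal peaks of replicate 1 overlapped by replicate 2 was 31.7% when 50% of the peak had to be covered, 35.5% with the shorter peak lists and 62.9% with equal numbers of peaks, which left 81.5% of those of replicate 2 overlapped. Leaving out each replicate gave 27 to 28 members with a start peak, 8 to 10 ligands and 18 to 19 receptors. It gave median heights of 0.423 to 1.36 for ligands and 1.33 to 2.61 for receptors, and mean distal peaks of 1.81 to 4.13 a ligand and 3 to 5.86 a receptor. Receptors stood above ligands in each of these quantities under each alternative run, with a height of 0 where no peak was called. With the shorter peak lists, Tnf, Tnfrsf14, Tnfrsf26, Cd40 and Tnfrsf10b lost their start peak in 1 or both replicates. That left 21 of 37 members, 7 of 16 ligands and 14 of 21 receptors with one in both, against 53.6% of all genes. The lead of the members over all genes was thus much smaller with those lists. No paired comparison of sample groups was possible because the series holds 1 group. With 2 libraries the spread is known only roughly, and the unknown depth keeps a missing peak from being read as closed DNA.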
